A study of Homo sapiens with 6 samples.

Results

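The 283 genes described here are the long intergenic non-coding RNAs (lincRNAs) that HEY cells express from the autosomes, apart from a few well-known ones. HEY is an established human ovarian cancer cell line. A gene was a member when the deposited table gave it the biotype lincRNA, placed it on chromosomes 1 to 22 and listed a mean of at least 1 FPKM over the 6 libraries. FPKM is the number of fragments per kilobase of gene, scaled to library size. UCA1, MALAT1, NEAT1, H19, MEG3, HOTAIR, PVT1, GAS5, SNHG1 and MIR22HG were left out by name, and 5 of these 10 would otherwise have passed. The table held 58735 genes, of which 7446 were autosomal lincRNA genes, 2869 of them above 0 in at least 1 library. The members were thus chosen by their mean FPKM, which is given as a description with no test. The rule itself did not use the contrast between the groups, but members and lists were chosen with earlier results of these data known.

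RNA sequencing of polyA RNA was carried out on 3 libraries from HEY cells that overexpress miR-200a and 3 libraries from HEY cells with an empty vector, labelled HEY NC. Both kinds of cell were grown in serum-supplemented RPMI-1640, and all 6 libraries carry batch number 1. Incubation before harvest is given as 48, 49 and 50 h for miR-200a 1, 2 and 3, and as 51, 52 and 53 h for vector 1, 2 and 3. Hours and genotype therefore cannot be told apart. No label says how miR-200a was delivered, whether either line is a clone, or that libraries of a group were separate cultures. The p-values below measure only the spread between these libraries, which may be technical.

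LincRNAs are transcribed by RNA polymerase II from their own promoters between protein-coding genes, are capped, and in most cases are spliced and polyadenylated, but carry no long conserved reading frame. Some act where they are made, on neighbouring genes, and others act elsewhere in the nucleus or the cytoplasm by binding proteins or other RNAs. Several serve mainly as precursors, with a small nucleolar RNA (snoRNA) or a microRNA cut out of the transcript. Their levels are usually low and differ strongly between cell types. A microRNA such as miR-200a pairs through its seed with sites in longer RNAs, lowering their stability or translation, and the miR-200 family is known for holding back the epithelial-mesenchymal transition.

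The lincRNAs were short and weakly expressed beside coding genes. Their gene length, as exonic bases, had a median of 1198 and ran between 160 and 17693. The 10202 protein-coding genes with a mean of at least 1 FPKM had a median length of 5197.5. A longest transcript with a single exon occurred in 93 lincRNAs (32.9%) and in 3.12% of those coding genes. The median of the mean FPKM was 1.91 for lincRNAs and 7.27 for the coding genes. Only 19 lincRNAs reached 10 FPKM, and 150 lay under 2 FPKM. All 22 autosomes held at least 1 of them, and chromosome 2 held the most, with 29. A clone-based name, with no approved symbol in this annotation, was carried by 174, a LINC number by 55 and another name by 54. The 5 members just inside the limit (AC046143.2, AC012615.1, AP001628.1, AL158166.2 and LINC00909) had means of 1.00 to 1.01 FPKM. The 5 genes just outside it (AP001432.1, LINC02544, AP001362.2, AP003059.2 and AC068473.5) had 0.976 to 0.992 FPKM.

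The libraries held 18007328, 15849592 and 18537449 reads on genes in miR-200a 1 to 3, against 21003858, 17928330 and 16107478 in vector 1 to 3. The 283 lincRNAs took 0.255 to 0.283% of these reads in miR-200a libraries and 0.249 to 0.277% in vector libraries. Reads on a single lincRNA over the 6 libraries had a median of 304 and ran between 18 and 74370, and 51 lincRNAs had under 100. The MIR200A gene had 5, 4 and 11 reads in miR-200a libraries and 0 in each vector library. Over the lincRNAs, the median absolute difference in log2(FPKM + 1), sign left out, was 0.14 between miR-200a 1 and 3, but 0.20 and 0.21 between miR-200a 2 and each of these. miR-200a 2 lay 0.19 to 0.20 from the vector libraries, so it was no closer to its own group than to the other. The ovarian lineage marker PAX8 stood at 32.7 to 41.2 FPKM in miR-200a libraries and 29.1 to 35.5 in vector libraries. The epithelial keratin KRT7 stood at 158 to 195 FPKM in miR-200a libraries and 126 to 142 in vector libraries, while CDH1 and MUC16 were listed at 0 in all 6. KRT8 stood at 97.7 to 123.6 FPKM in miR-200a libraries and 96.6 to 107.5 in vector libraries. KRT18 stood at 103.6 to 130.7 FPKM in miR-200a libraries and 89.2 to 102.2 in vector libraries. SOX17 stood at 2.83 to 4.41 FPKM in miR-200a libraries and 1.41 to 2.24 in vector libraries. The groups did not overlap for KRT7, KRT18 and SOX17, as for 19.0% of all tested genes. WT1 stood at 0.700 to 1.26 FPKM in miR-200a libraries and 0.857 to 1.11 in vector libraries. EPCAM stood at 0.0871 to 0.199 FPKM in miR-200a libraries and 0.151 to 0.466 in vector libraries. The 4 leukocyte markers stayed at or below 0.126 FPKM, and of the 4 fibroblast markers only COL1A1 exceeded 0.0558, at 0.733 to 1.43. Of the 3 endothelial markers, CDH5 reached 39.5 to 51.2 FPKM in miR-200a libraries and 35.2 to 42.2 in vector libraries, while PECAM1 and VWF stayed at or below 0.428. The part of these markers in the lincRNA differences was not tested.

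NORAD was the most abundant of the lincRNAs by a wide margin and took 23.1 to 27.8% of their reads in each library. NORAD is a cytoplasmic RNA, induced by DNA damage, that is known for guarding chromosome stability. It is a gene of 1 exon and 5339 bases on chromosome 20, 36045622 to 36050960, minus strand (GRCh38). Of all its 31-base words, 56.4% also occur in other genes and 38.0% in OVCH1-AS1, so some of its reads are uncertain. NORAD stood at 122, 146 and 122 FPKM in miR-200a libraries and at 108, 143 and 140 FPKM in vector libraries. Both groups averaged 130 FPKM, and they overlapped. The log2(FPKM + 1) difference was 0.01 (SE 0.13, limma adjusted p = 0.985).

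MANCR, a lincRNA first described in breast cancer cells during mitosis, came next. It had 60.5, 64.7 and 57.4 FPKM in miR-200a libraries against 64.7, 61.7 and 58.2 FPKM in vector libraries. These libraries lay within about the same range, and the log2 difference was -0.02 (SE 0.08). PURPL, which p53 induces and which in turn lowers p53, had 26.7, 32.0 and 26.5 FPKM in miR-200a libraries against 30.5, 34.8 and 29.2 in vector libraries. LINC00958, also known from bladder cancer, had 21.2, 19.7 and 21.5 FPKM in miR-200a libraries against 25.1, 19.55 and 19.96 in vector libraries. Both genes overlapped between the groups. The snoRNA hosts SNHG19 and SNHG8 are described with their class below. AP005233.2 (log2 difference 0.04), AL365356.5 (-0.24), AC013451.2 (-0.06) and AC048341.2 (-0.38) complete the 12 most abundant with FP236383.3 and AC003092.1. AC048341.2 spread most among these 4 in vector libraries, with 12.3, 23.3 and 20.4 FPKM, beside 12.9, 13.8 and 14.2 FPKM in miR-200a libraries. Of the 19 lincRNAs at or above 10 FPKM, 15 had a log2 difference below 0 and 4 above, none past the threshold. That split was 12 to 7 when values were scaled as TPM (each library's lengthwise-scaled values brought to the same sum).

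**Figure D1:**
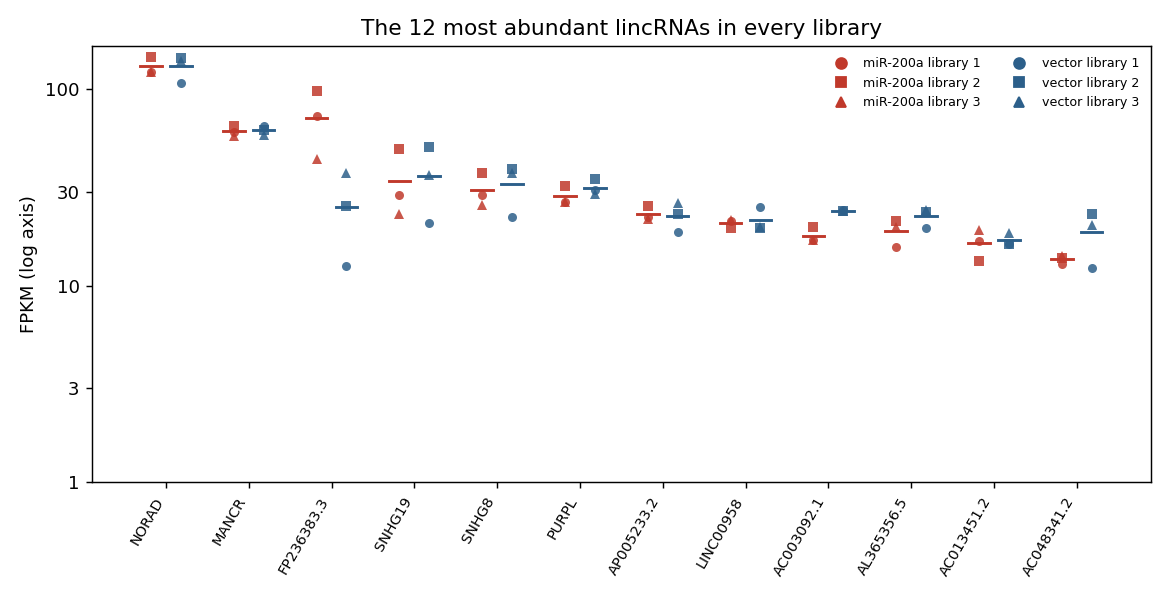
FPKM (log axis) of the 12 most abundant lincRNAs in each library, with miR-200a in red on the left and vector in blue on the right of each gene; marker shapes give the library number and bars the group mean. NORAD stands at 108 to 146 FPKM in all 6 libraries. Only FP236383.3 and AC003092.1 have groups that do not overlap, and those of FP236383.3 nearly meet.

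Differences between the groups were tested over the whole table, with limma on log2(FPKM + 1) for 12231 genes and Benjamini-Hochberg adjustment over all of them. Of the 283 lincRNAs, 278 passed the filter of at least 1 FPKM in at least 3 libraries. The 5 that did not (AC092807.2, AC012213.4, AC008440.3, AP005264.1 and AP001628.1) were not tested. LINC01687 and AC090409.1 passed through vector libraries alone, and LINC01224, LINC01940 and LINC00909 through miR-200a libraries alone, so for these 5 the filter itself favoured a difference. A single lincRNA passed an adjusted p of 0.05, AC073174.1, which was higher with miR-200a. That is 1 of 278 (0.36%), beside 0.401% of all tested genes (49, with 0.286% higher and 0.114% lower). No lincRNA was called lower by limma. At an unadjusted p under 0.05, 21 were lower (7.55%, beside 6.35% of all tested genes) and 18 higher (6.47%, beside 6.92%), 39 in all (14.0%, beside 13.3%). limma's voom on the recovered reads called 1 lincRNA (0.36%), LINC01940, where it called 0.932% of all tested genes. With a correction for GC content and length limma called 4 (1.44%), beside 1.85% of all tested genes. With limma the share of lincRNAs called was close to that of the whole table, and with voom it was lower.

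The groups did not overlap for 57 of the 278 lincRNAs (20.5%), beside 19.0% of all tested genes. Of these 57, 25 were higher with miR-200a (8.99%, beside 8.29%) and 32 lower (11.5%, beside 10.7%). The median log2 difference over the lincRNAs was -0.01, the same to 2 decimals as over all tested genes, and with TPM scaling it changed sign to 0.01. The middle of the distribution was wider. Quartiles lay at -0.16 and 0.13 for lincRNAs and at -0.12 and 0.12 for all tested genes. A log2 difference of at least 0.5 in size was found in 17 lincRNAs (6.12%) and in 2.94% of all tested genes. Scatter within groups was wider too, with a median SD on the log2 scale of 0.17 for lincRNAs, 0.13 for all tested genes and 0.11 for coding genes under 3 FPKM. Neither trait was particular to lincRNAs. The 410 tested antisense RNA genes, with a median level of 1.69 FPKM, had quartiles at -0.13 and 0.17 and a median SD of 0.21.

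**Figure D2:**
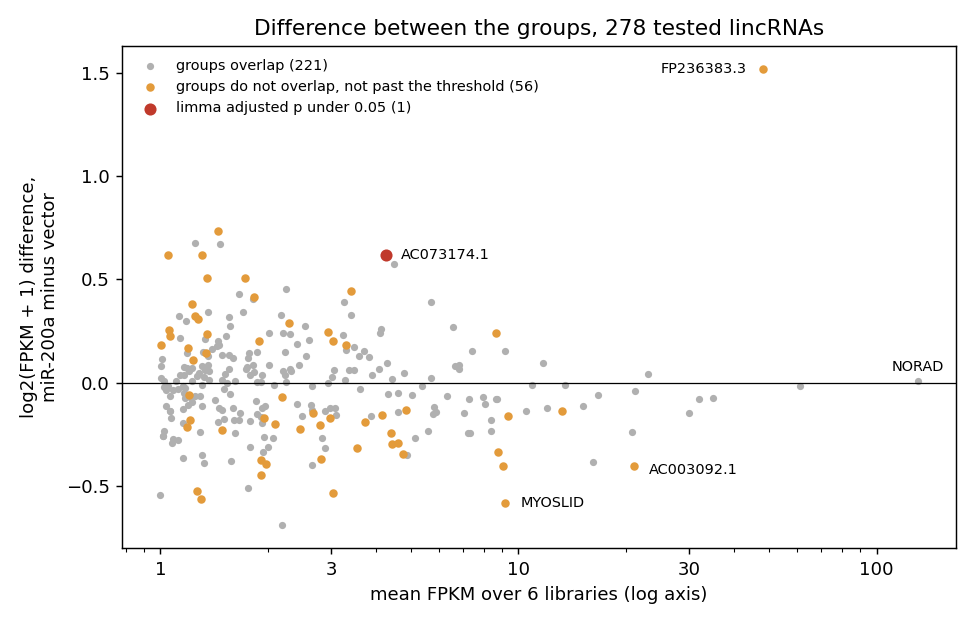
Difference in log2(FPKM + 1), miR-200a minus vector, of each of the 278 tested lincRNAs against its mean FPKM over 6 libraries (log axis). Most points lie within 0.25 of 0 (207 of 278), 57 have groups that do not overlap, and AC073174.1 is the 1 gene past the limma threshold.

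Increases and decreases below name the sign of the log2 difference, since AC073174.1 alone passed the limma threshold. AC073174.1 is an uncharacterised lincRNA of 3 exons and 415 bases on chromosome 10, 52973488 to 52975815, minus strand (GRCh38). No coding gene overlaps it on either strand, while overlap with antisense, other lincRNA or pseudogene annotations was not tested. AC073174.1 had 5.42, 5.13 and 5.55 FPKM in miR-200a libraries against 3.20, 3.10 and 3.13 FPKM in vector libraries. Every miR-200a library lay above every vector library, and the mean was 1.71-fold higher. The log2 difference was 0.62 (SE 0.07, limma adjusted p = 0.0205). These levels rest on 41, 34 and 43 reads in miR-200a libraries and 28, 23 and 21 reads in vector libraries. Summed over a group, 118 reads (95% Poisson interval 97.7 to 141) stand beside 72 reads (56.3 to 90.7), an interval that covers counting error only. voom, which weighs such counts, gave an adjusted p of 0.219. The call held when miR-200a 2 was left out (adjusted p 0.0309) and was lost when any of the other 5 libraries was, with adjusted p up to 0.129. The nearest coding gene, MBL2, which encodes the liver's mannose-binding lectin, starts 204 kb away and was listed at 0 in all 6 libraries.

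MYOSLID had the most negative log2 difference among lincRNAs whose groups did not overlap. In human vascular smooth muscle cells it is induced by myocardin and takes part in the TGF-beta and smooth muscle programme. It had 7.20, 6.66 and 7.65 FPKM in miR-200a libraries against 11.3, 12.1 and 10.3 FPKM in vector libraries. The groups lay well apart, with 458 reads in miR-200a libraries against 747 in vector libraries. The log2 difference was -0.58 (SE 0.08, limma adjusted p = 0.0517, voom 0.0501), just outside the threshold. It was within the threshold after a correction for GC content and length (0.0292) and when miR-200a 2 was left out (0.0479). Of its 31-base words, 28.0% also occur in AC009226.1, an antisense gene across the same locus. KLF7, the nearest coding gene, starts 72 kb away and had a log2 difference of -0.26 (limma adjusted p = 0.242).

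AC003092.1 was the most abundant lincRNA whose level was lower without overlap. It is a gene of 5 exons on chromosome 7, 94022833 to 94066661, plus strand, with no coding gene across it. Overlap with antisense, other lincRNA or pseudogene annotations was not tested here either. AC003092.1 had 17.1, 19.8 and 17.0 FPKM in miR-200a libraries against 24.1, 23.9 and 24.1 FPKM in vector libraries. The vector libraries were nearly alike and miR-200a 2 was the closest to them. The log2 difference was -0.40 (SE 0.08, limma adjusted p = 0.119), and without miR-200a 2 the adjusted p was 0.0354. C20orf197, once annotated as a reading frame, had 7.79, 8.62 and 6.63 FPKM in miR-200a libraries against 9.84, 11.4 and 10.1 in vector libraries (log2 difference -0.40, limma adjusted p = 0.223).

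LINC00308 and LINC01687 lie head to head on chromosome 21 with starts 158 bases apart, and the nearest coding start, that of NCAM2, lies 1100 kb away. LINC00308 had 2.26, 2.07 and 2.50 FPKM in miR-200a libraries against 4.77, 3.54 and 3.06 in vector libraries. LINC01687 had 0.886, 0.801 and 0.864 FPKM in miR-200a libraries against 2.21, 1.54 and 1.497 in vector libraries. Neither gene overlapped between the groups, with log2 differences of -0.53 and -0.56 (limma adjusted p = 0.223 and 0.171), so neither passed the threshold. LINC01687 passed the filter through vector libraries alone, so the filter itself favoured its difference and its sign. LINC00308 and LINC01687 were 1 of 4 pairs of lincRNAs whose starts lay within 1000 bases. The log2 difference had the same sign within each of the 4 pairs, the others being AC124312.2 with PWAR6 (-0.38 and -0.11), LINC00526 with LINC00667 (-0.18 and -0.16) and LINC01116 with LINC01117 (-0.01 and -0.08). In these other 3 pairs the partners share sequence, so their reads may be shared. Of the 31-base words, 36.5% of those of AC124312.2 occur in PWAR6, 40.3% of those of LINC00526 in LINC00667 and 28.7% of those of LINC01117 in LINC01116. LINC00308 and LINC01687 have at most 0.574% of their words in other genes.

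The rest of the 12 largest decreases without overlap had log2 differences between -0.53 and -0.34. They were AC090409.1 (-0.53), GS1-124K5.4 (-0.45), AC005332.3 (-0.39), LINC02101 (-0.37), AC018645.2 (-0.37), LINC01615 (-0.35) and HIF1A-AS2 (-0.34). Of these, AC090409.1 passed the filter through vector libraries alone. HIF1A-AS2 is an antisense transcript of the locus of HIF1A, the oxygen-regulated transcription factor. It had 6.38, 8.34 and 8.23 FPKM in miR-200a libraries against 9.09, 11.3 and 9.28 FPKM in vector libraries. No miR-200a library reached the lowest vector library, with a limma adjusted p of 0.334. LINC01615, near the matrix gene THBS2, had 3.91, 3.62 and 4.67 FPKM in miR-200a libraries against 5.00, 5.52 and 5.75 in vector libraries (limma adjusted p = 0.26). Over these 12 decreases the limma adjusted p ran between 0.0517 and 0.334.

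FP236383.3 had the largest increase of all tested lincRNAs and also the widest spread. It is a gene of 923 bases without introns on the short arm of chromosome 21, 8437629 to 8438551, minus strand, and lies 2.19 kb from an annotated copy of the 5.8S ribosomal RNA gene RNA5-8SN2. It had 72.8, 97.5 and 43.9 FPKM in miR-200a libraries against 12.6, 25.5 and 37.4 FPKM in vector libraries. The lowest miR-200a library and the highest vector library nearly met, and the log2 difference of 1.52 had an SE of 0.42 (limma adjusted p = 0.241). All of its 31-base words (100%) also occur in FP236383.2, 44.2 kb away, so its level is uncertain. FP236383.2 had 59, 0 and 2 reads in miR-200a libraries against 2, 6 and 3 in vector libraries. RNA5-8SN2 beside it had 12, 1 and 9 reads in miR-200a libraries against 7, 1 and 2 in vector libraries. The part of ribosomal RNA in the difference was not tested.

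LINC01940 is a gene of 10 exons on chromosome 2, 238919302 to 238926269, minus strand. It had 1.51, 1.44 and 1.47 FPKM in miR-200a libraries against 0.844, 0.401 and 0.620 FPKM in vector libraries, and it passed the filter through miR-200a libraries alone. The 272 reads in miR-200a libraries (95% Poisson interval 241 to 306) stand beside 122 in vector libraries (101 to 146). Its log2 difference was 0.62 (SE 0.13), with a limma adjusted p of 0.142 and a voom adjusted p of 0.0457. Its nearest coding start, 78 kb away, is that of TWIST2, a transcription factor of the epithelial-mesenchymal transition. TWIST2 had 36.1, 27.9 and 34.2 FPKM in miR-200a libraries against 20.8, 24.5 and 26.5 in vector libraries, also without overlap (log2 difference 0.44, limma adjusted p = 0.265). HDAC4, the coding gene on its other side, stood at 1.81 FPKM in miR-200a libraries and 1.41 in vector libraries on average (log2 difference 0.21, limma adjusted p = 0.413).

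AL365203.2, a gene of 1 exon on chromosome 10, had 4.22, 4.32 and 3.75 FPKM in miR-200a libraries against 2.56, 2.83 and 2.82 FPKM in vector libraries. The groups lay apart, with a log2 difference of 0.45 (SE 0.08, limma adjusted p = 0.0967), and a correction for GC content and length gave 0.0155. AC092368.3 had 2.41, 1.77 and 2.42 FPKM in miR-200a libraries against 1.25, 1.20 and 1.28 in vector libraries (log2 difference 0.51, limma adjusted p = 0.169). Of its 31-base words, 91.5% also occur in RAB43, a coding gene elsewhere, so its level is uncertain. AC008946.1 had a log2 difference of 0.51 (limma adjusted p = 0.123), and 53.7% of its words occur in other genes (14.1% in SLC31A1, the most for any single gene). The rest of the 12 largest increases without overlap were AC018752.1 (0.73), AC015922.2 (0.62), AC078820.1 (0.41), AL365181.2 (0.38), AC093227.1 (0.32) and LINC01521 (0.31). Reads were few for AC018752.1, with 22 in miR-200a libraries and 9 in vector libraries, and for AC015922.2, with 33 in miR-200a libraries and 16 in vector libraries. Over these 12 increases the limma adjusted p ran between 0.0205 and 0.373. Clone-based names made up 10 of the 12 increases and at least 4 of the 12 decreases, beside 169 of all 278 tested lincRNAs. Another decrease has a clone-like name that was not counted, and the difference between these shares was not tested.

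**Figure D3:**
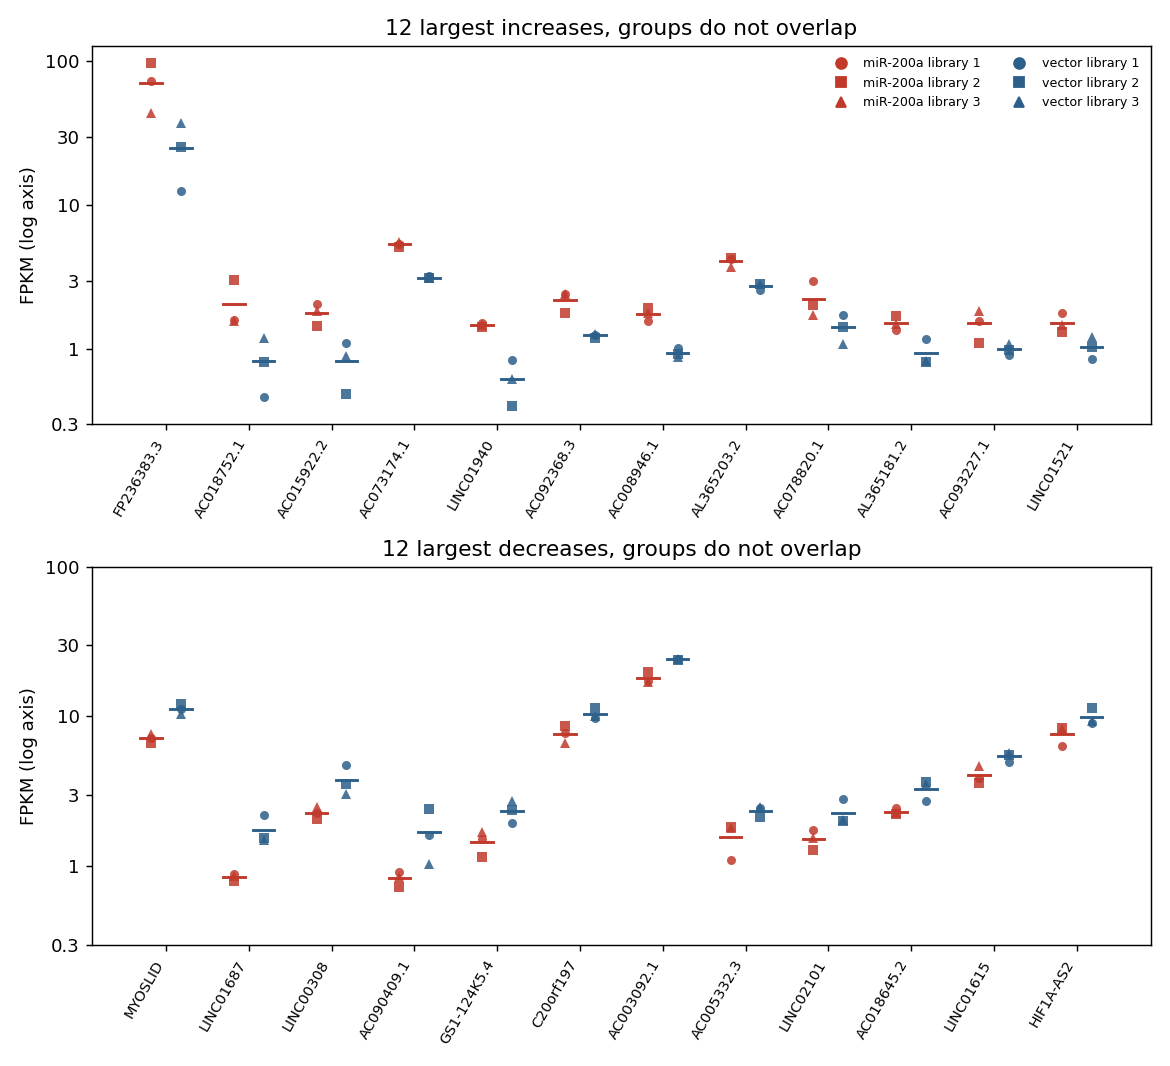
FPKM (log axis) in each library of the 12 largest increases (upper panel) and 12 largest decreases (lower panel) among tested lincRNAs whose groups do not overlap, miR-200a in red on the left and vector in blue on the right; bars are group means and shapes give the library number. Most of these genes lie under 5 FPKM, AC073174.1 alone passes the threshold, and FP236383.3 has the widest spread.

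Of the named classes, only the snoRNA hosts all lay on 1 side of 0 among those with over 3 members, and none of them passed the threshold. These transcripts carry in their introns the small nucleolar RNAs that guide modification of ribosomal RNA, and many of the spliced products are short-lived. The 8 hosts among the 283 lincRNAs were SNHG19, SNHG8, SNHG4, SNHG15, EPB41L4A-AS1, SNHG18, LINC02001 and AC078923.1. Hosts left out by name, such as SNHG1, were not counted. All 8 had a log2 difference below 0, between -0.30 and -0.02 with a median of -0.11, beside 6352 below 0 among the 12231 tested genes and their median of -0.01. With TPM scaling the count was 7 of 8, and with single libraries left out it was 5 to 8 of 8. The median moved to -0.28 without vector 1, to -0.25 without miR-200a 2, and to -0.06 without miR-200a 1 or vector 3. The smallest limma adjusted p among them was 0.272, for SNHG18. SNHG18 had 3.71, 3.79 and 4.14 FPKM in miR-200a libraries against 4.55, 5.54 and 4.91 in vector libraries. SNHG4 had 11.6, 13.2 and 12.98 FPKM in miR-200a libraries against 13.3, 14.1 and 14.3 in vector libraries. Only these 2 of the 8 (25%) were lower without overlap, beside 10.7% of all tested genes. SNHG4 lies on the strand of MATR3 and shares 10.1% of its words with it. SNHG19 had 28.9, 49.8 and 23 FPKM in miR-200a libraries against 20.8, 50.7 and 36.7 in vector libraries. SNHG8 had 28.9, 37.4 and 25.8 FPKM in miR-200a libraries against 22.3, 39.2 and 37.5 in vector libraries. Library 2 was the highest of its group for both, in both groups, so their spread between libraries exceeded the difference between groups.

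**Figure D4:**
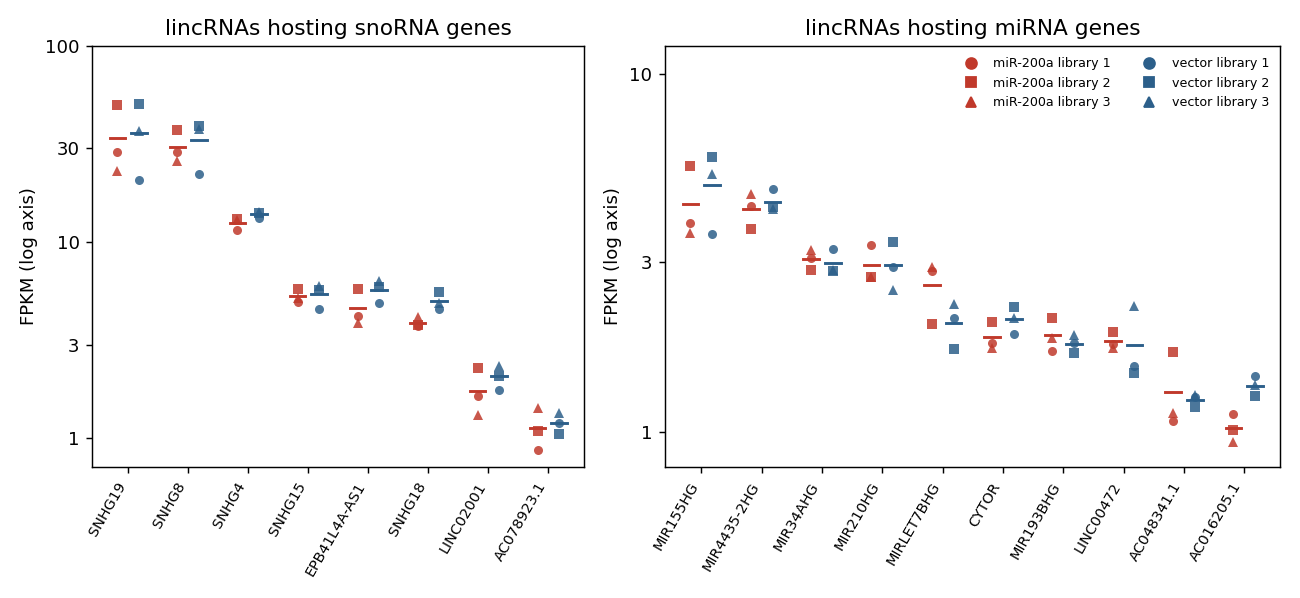
FPKM (log axis) in each library of the 8 lincRNAs that host snoRNA genes (left panel) and the 10 that host microRNA genes (right panel), miR-200a in red on the left and vector in blue on the right of each gene; bars are group means and shapes give the library number. SNHG19, SNHG8 and MIR155HG are high in library 2 of both groups, and none of the 18 genes passes the threshold.

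The microRNA hosts are read here as precursors, since polyA libraries do not measure the mature microRNA. Of 10 hosts among the 283 lincRNAs, 5 had a log2 difference above 0 and 5 below, with a median of 0.01, and none passed the threshold. The mature microRNAs within the hosts with the best-known products show which targets each could pair with, and are given from RefSeq (GRCh38.p14), 5′ to 3′, with the seed (bases 2 to 8) in capitals.
miR-155-5p in MIR155HG: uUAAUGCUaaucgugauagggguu
miR-34a-5p in MIR34AHG: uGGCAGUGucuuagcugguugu
miR-210-3p in MIR210HG: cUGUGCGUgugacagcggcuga
let-7b-5p in MIRLET7BHG: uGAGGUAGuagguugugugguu
let-7a-5p in MIRLET7BHG: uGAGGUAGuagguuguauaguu
let-7i-5p in AC048341.1: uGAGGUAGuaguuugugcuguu
miR-193b-3p in MIR193BHG: aACUGGCCcucaaagucccgcu
miR-365a-3p in MIR193BHG: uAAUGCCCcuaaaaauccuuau
miR-30a-5p in LINC00472: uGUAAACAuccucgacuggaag
miR-30c-5p in LINC00472: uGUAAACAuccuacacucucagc
The let-7 members share the seed GAGGUAG and the miR-30 members GUAAACA, while the other microRNAs each have their own. MIRLET7BHG and AC048341.1 thus carry products of the same seed. MIRLET7BHG, host of growth-restraining let-7 microRNAs, had 2.83, 2.01 and 2.90 FPKM in miR-200a libraries against 2.08, 1.71 and 2.29 in vector libraries. The groups overlapped, since miR-200a 2 lay below 2 of the vector libraries (log2 difference 0.24, limma adjusted p = 0.457). AC048341.1, the let-7i host, had 1.08, 1.68 and 1.13 FPKM in miR-200a libraries against 1.26, 1.18 and 1.27 in vector libraries, with miR-200a 2 alone above the rest.

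MIR155HG, host of the inflammatory microRNA miR-155, had 3.84, 5.56 and 3.61 FPKM in miR-200a libraries against 3.59, 5.88 and 5.25 in vector libraries. Its groups overlapped (log2 difference -0.14). MIR34AHG, whose microRNA p53 induces, had 3.07, 2.85 and 3.22 FPKM in miR-200a libraries against 3.25, 2.83 and 2.84 in vector libraries (log2 difference 0.03). MIR210HG, whose microRNA hypoxia induces, had 3.33, 2.73 and 2.72 FPKM in miR-200a libraries against 2.91, 3.40 and 2.50 in vector libraries, a log2 difference that rounded to 0.00. The groups overlapped for each of these. MIR193BHG (0.05) and LINC00472 (0.04) differed as little. CYTOR (-0.11) and MIR4435-2HG (-0.06) share sequence, as 53.9% of the words of MIR4435-2HG occur in CYTOR and 23.1% of those of CYTOR in MIR4435-2HG, so reads could be split between them. AC016205.1, host of MIR924, had 1.124, 1.013 and 0.943 FPKM in miR-200a libraries against 1.43, 1.27 and 1.36 in vector libraries. It was the only 1 of the 10 microRNA hosts whose groups did not overlap, beside 19.0% of all tested genes (log2 difference -0.22, limma adjusted p = 0.399).

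Lists of lincRNAs by the process they are linked to had few symbols among the 283 and no called one. A listed gene with another biotype in the table, or on a sex chromosome, was not counted, whatever its level. Of 51 symbols of functionally studied lincRNAs, 10 were among the 283, with 3 above 0 and 7 below and a median log2 difference of -0.04. The p53 or DNA damage list had 3 of 10 (NORAD 0.01, PURPL -0.15 and MIR34AHG 0.03). The list linked to the epithelial-mesenchymal transition or TGF-beta, the process for which miR-200a is best known, had 3 of 21. These were LINC01116 (-0.01), CYTOR (-0.11) and MIR4435-2HG (-0.06). LINC01116, from beside the HOXD cluster, was among the steadiest, with 10.5, 11.3 and 10.7 FPKM in miR-200a libraries against 10.6, 11.3 and 10.9 in vector libraries. The inflammation or hypoxia list had 4 of 12, namely MIR155HG, MIR210HG, CYTOR and LINC00973. LINC00973 had 11.2, 14.1 and 11.1 FPKM in miR-200a libraries against 10.1, 11.2 and 12.6 in vector libraries (log2 difference 0.09). Of the other studied lincRNAs, LINC00847 had a log2 difference of -0.17 with no overlap, EPB41L4A-AS1 -0.27, LINC00857 0.04 and LINC00665 -0.03. Over the 4 lists the smallest limma adjusted p was 0.443.

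Many of the lincRNAs start beside a coding gene on the opposite strand. A divergent pair was defined as starts within 1000 bases on opposite strands, and 62 of the 283 lincRNAs (21.9%) formed one, with a median distance of 247.5 bases. Whether the starts face away from each other was not checked, so overlapping pairs such as MAPKAPK5-AS1 with MAPKAPK5 are included. The class of divergent transcripts includes 6 of the 7 lincRNAs with a DT symbol, such as GAS6-DT and BAIAP2-DT. Among the 62, 36 had a log2 difference above 0 and 26 below (median 0.04). Without vector 1 the split turned to 30 above and 32 below (median -0.01), and with the correction for GC content and length it was 32 to 30. Without overlap, 7 were higher (11.3%, beside 8.29% of all tested genes) and 2 lower (3.23%, beside 10.7%), and none passed the threshold. In 58 pairs both genes were tested, and in 38 of these (65.5%) the log2 differences had the same sign. The sign was the same in 51 of 80 pairs (63.8%) with starts 1 to 50 kb apart and in 38 of 63 pairs (60.3%) beyond 50 kb. Across the 58 pairs Pearson's r was 0.45 and Spearman's rho 0.42. At 1 to 50 kb r was 0.14, and beyond 50 kb it was 0.26. These are descriptions across genes of the same 6 libraries, which share depth and scaling, and the difference between the values of r was not tested.

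**Figure D5:**
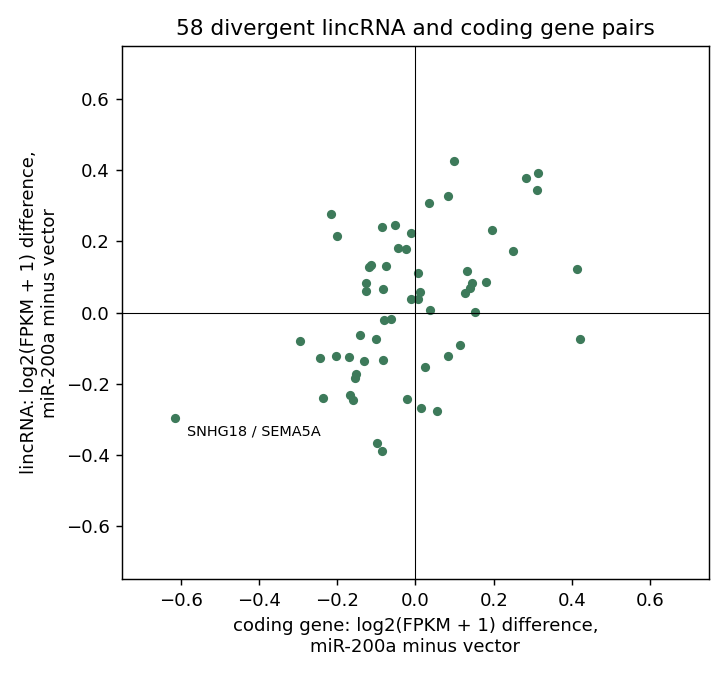
Difference in log2(FPKM + 1), miR-200a minus vector, of the lincRNA (vertical axis) against that of its coding partner (horizontal axis) in the 58 divergent pairs with both genes tested. In 38 pairs the signs agree, and SNHG18 with SEMA5A stands apart at the lower left.

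SNHG18 and SEMA5A, which encodes an axon guidance semaphorin, start 125 bases apart on chromosome 5. They were the only 1 of the 58 divergent pairs in which neither gene overlapped between the groups. There were 3 such pairs among the 80 with starts 1 to 50 kb apart and 4 among the 63 beyond 50 kb. SEMA5A had 0.835, 0.833 and 0.854 FPKM in miR-200a libraries against 1.99, 1.85 and 1.64 FPKM in vector libraries. Its log2 difference was -0.61 (SE 0.10, limma adjusted p = 0.0664), beside -0.30 for SNHG18, and neither passed the threshold. AP001527.2 starts 4 bases from YAP1, the Hippo pathway coactivator, and here the partners differed in sign. AP001527.2 averaged 3.26 FPKM in miR-200a libraries and 2.61 in vector libraries (log2 difference 0.25), and YAP1 42.3 FPKM in miR-200a libraries and 44.0 in vector libraries (-0.05). Of the more distant neighbours, SNAPC1, a subunit of the factor that starts small nuclear RNA transcription, starts 11.3 kb from HIF1A-AS2. SNAPC1 averaged 15.0 FPKM in miR-200a libraries and 20.7 in vector libraries (log2 difference -0.44, limma adjusted p = 0.0519). Of the 194 different tested coding genes nearest to a lincRNA, 1 passed the threshold (0.515%, beside 0.401% of all tested genes). It was ADAMTS6, a secreted metalloprotease, with 15.1 FPKM in miR-200a libraries and 23.9 in vector libraries on average (log2 difference -0.63, limma adjusted p = 0.0382). AC025176.1, 5.13 kb from its start, had 2.18 FPKM in miR-200a libraries and 1.45 in vector libraries on average, with overlapping groups (log2 difference 0.41, limma adjusted p = 0.608).

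Sites for the overexpressed microRNA itself were then sought in the lincRNAs. The mature strand is given from RefSeq with its seed, bases 2 to 8, in capitals, and beside it that of the family member whose seed differs by 1 base.
miR-200a-3p: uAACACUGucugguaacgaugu
miR-200b-3p: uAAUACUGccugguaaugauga
The match to the miR-200a seed is CAGTGTT and that to the miR-200b seed CAGTATT, sought on the transcript strand of each gene's longest transcript. CAGTGTT occurred in 34 of the 283 lincRNAs (12%), at 41 places or 0.0899 per kilobase. It occurred in 30.8% of the 12227 tested genes with a transcript, at 0.113 per kilobase. CAGTATT occurred in 10.2% of the lincRNAs and 26.1% of those genes. Transcript length went with these shares, as the third of lincRNAs with the longest transcripts held CAGTGTT in 29.5% (28 of 95) at 0.112 per kilobase. The matches of the lincRNA with the most, and of 5 whose groups did not overlap, are shown in windows of 30 bases with the match in capitals, as DNA, 5′ to 3′. The base named is the position in the transcript of the first capital, not of the window's first base.
AC048341.1, from base 3764: ataaataatgcCAGTGTTaacacaaaaatt
AC048341.1, from base 4788: catgactttttCAGTGTTctacagaattga
AC048341.1, from base 7996: cagtgattcctCAGTGTTtattagatcagg
AC008124.1, from base 2710: gtaattctaagCAGTGTTgataactaagct
AC008124.1, from base 3744: agtgttaggatCAGTGTTactcaaagtgtt
LINC00667, from base 2724: atcttctgtggCAGTGTTaggaaactatta
DUBR, from base 2189: aggttggctatCAGTGTTtccagaagccag
LINC00346, from base 2196: tggtaggagacCAGTGTTcatgcagttgta
AL365181.2, from base 2416: ccccccatctcCAGTGTTagccttgggcct
An A right after the match, which strengthens many microRNA sites, followed 5 of the 41 matches. Among the 34 lincRNAs with a match, 19 had a log2 difference below 0 and 15 above, and none passed the limma threshold, with a smallest adjusted p of 0.288. The median log2 difference was -0.02 with a match and -0.01 for the 244 tested lincRNAs without. Over all tested genes it was -0.04 with a match and 0.01 without. AC048341.1, with 3 matches the most of any lincRNA, had a log2 difference of 0.03. AC008124.1, with 2 matches, averaged 2.19 FPKM in miR-200a libraries and 2.72 in vector libraries without overlap (log2 difference -0.23, limma adjusted p = 0.361). LINC00667 (-0.16), DUBR (-0.15) and AC083843.2 (-0.06) were also lower without overlap, while LINC00346 (0.20) and AL365181.2 (0.38) were higher without overlap. In all, 4 of the 34 (11.8%) were lower without overlap, beside 10.7% of all tested genes, and 2 (5.88%) higher, beside 8.29%. AC073174.1, MYOSLID, AC003092.1 and NORAD held no CAGTGTT in the transcript searched.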

How the data were processed

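PolyA RNA of 6 HEY libraries was measured, 3 with miR-200a and 3 with empty vector. The deposited FPKM values, 1 column per library, were made by the authors, per the file headers. The aligner, the counting tool and whether strand was used have no statement in the labels (not given in the sources used here). Mouse builds GRCm38 and mm10 appear in the submitters' processing notes, yet all 58735 gene identifiers, positions and biotypes equalled human GENCODE 29 (GRCh38). Reads were recovered from the FPKM values, the gene lengths and 1 scaling total per library, and 100% of them were whole within 0.001. In a gene of 1 kb, 1 read equalled 0.0475 to 0.0626 FPKM. Intervals cover counting error only.

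The filter kept genes with at least 1 FPKM in at least 3 libraries. The log2(FPKM + 1) values were fitted by limma (version 3.58.1, R version 4.3.3) with lmFit and trended eBayes, with no term besides group. Tests were two-sided, with Benjamini-Hochberg adjustment over 12231 genes and a threshold of 0.05. Differences are miR-200a minus vector on that scale, where changes of low genes come out too small, and folds are ratios of mean FPKM. The procedure was tested on simulated data. Alternatives were other pseudocounts (0.1 and 0.5), filters and scalings, voom on recovered reads, a GC content and length correction, a replicate block, miR-200a 1 and 3 averaged, and each library left out. Seed matches and 31-base words came from the longest GENCODE transcript of each gene, and microRNA sequences from RefSeq.

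The text names every lincRNA past the threshold, the 12 most abundant, the 12 largest increases and 12 largest decreases without overlap, the 5 on each side of the FPKM limit, and the expressed members of the class lists. Neighbouring genes, seed-match holders and lincRNA pairs named beyond these were chosen after their values were seen. Members and lists were chosen with earlier results of these data known. Of the lincRNAs, 22 overlap a coding gene on the same strand and 31 on the other strand, among them SNHG4, HIF1A-AS2, EPB41L4A-AS1, MIR4435-2HG, MIRLET7BHG, LINC02001 and AC018752.1, so their reads are uncertain. More than 50% of the 31-base words occur in other genes for 21 lincRNAs, and none for 113. Some items are not reported here.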

Additional observations from a re-analysis of the deposited data

How the results depend on the processing

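The number of genes called over the whole table was 49 and moved most. It was 5 with no filter on low values, 226 with the GC content and length correction, 114 with voom, 9 with miR-200a 1 and 3 averaged to 1 library, and 8 to 225 with single libraries left out, where 225 came without miR-200a 2. The causes were not tested. The number of lincRNAs called, 1, was 0 with no filter, 4 with the correction (MYOSLID, AC073174.1, AL365203.2 and AC008946.1), 0 with the correction and a replicate block, 0 with the averaged library, and 0 to 4 with single libraries left out. Without miR-200a 2 the 4 were AC003092.1, MYOSLID, AC073174.1 and AC092368.3, and without any of the other 5 libraries the count was 0. The lincRNA median log2 difference, -0.0141, ran between -0.0498 (without vector 1) and -0.0038 (without vector 3), and was 0.0084 with TPM scaling. With the replicate number as a block, 69 genes and 1 lincRNA (AC073174.1) were called. Deviations of same-numbered libraries correlated at 0.143, 0.367 and -0.006, so the numbers were not taken as pairs. Of 55 named lincRNAs, 36 kept their direction under all 17 alternatives, and the 19 that changed sign had log2 differences of at most 0.0936 in size. None of the 24 largest increases and decreases, which are among the 55, changed sign. They were chosen for groups that do not overlap, so leaving out a library could not change it, and their constancy carries no further weight. The depth limits the low genes, with 51 lincRNAs under 100 reads over 6 libraries.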
